A study of Mus musculus with 59 samples.

Results

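The oligodendrocyte and myelin genes are 9 of the 18088 genes measured: Mbp, Mobp, Mog, Mag, Cldn11, Cnp, Opalin, Myrf and Sox10. They were chosen by name, as the table entries whose Ensembl identifiers carry these mouse symbols in GENCODE, and each symbol had 1 entry. Oligodendrocytes wrap axons of the central nervous system in myelin, a stack of membrane that speeds conduction and supplies the axon with metabolites. Their precursors divide, stop dividing and switch on the myelin genes under transcription factors that include Sox10 and Myrf, and in the rodent cortex this takes place largely in the weeks after birth. Mbp, Mobp, Mog, Mag, Cldn11 and Opalin encode proteins of the myelin membrane or its cytoplasmic face, and Cnp encodes an enzyme of the uncompacted layers.

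The 59 libraries hold messenger RNA from prefrontal cortex taken at postnatal day 25 from mice of the C57BL/6J strain. They were heterozygous for Naa15 (HT, 29 libraries) or wild type (WT, 30 libraries); Naa15 encodes the auxiliary subunit of an enzyme complex that acetylates the N-terminus of proteins, and the labels do not give the allele. Lithium, a mood stabiliser, fluoxetine, a serotonin reuptake inhibitor, or vehicle came to the pups in their mothers' milk on postnatal days 3 to 24. The groups were HT lithium, HT fluoxetine, HT vehicle, WT lithium, WT fluoxetine and WT vehicle, each with 5 female and 5 male libraries except HT vehicle, which had 5 female and 4 male. Litters are not given, and p-values therefore rest on variation among these samples alone. The tissue is bulk cortex, in which fewer oligodendrocytes and less RNA per oligodendrocyte cannot be told apart.

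Each library held 24.99 to 32.87 M reads, and values are counts scaled by the authors with 1 size factor for each library ("normalised counts"). Levels of the sex-linked genes matched the labelled sex in 59 of 59 libraries. Naa15 itself averaged 1686 ± 126 normalised counts in the libraries labelled HT and 1661 ± 137 in those labelled WT (SD, n = 29 and 30), a difference of 0.02 ± 0.023 on the log2 scale (SE; adjusted p = 0.648, limma), so its level gave no check of the genotype labels. By treatment, the Naa15 difference of HT from WT was -0.03 ± 0.041 under vehicle, -0.03 ± 0.040 under lithium and 0.12 ± 0.040 under fluoxetine. Only the fluoxetine value was called (adjusted p = 0.0149, limma), in a comparison where 33.3% of all genes were. A set of 25 libraries, the 20 lithium libraries and the 5 HT fluoxetine females, stood apart from the 34 others. On the first principal component of all genes, which held 14.4% of the variance, the 25 lay between -31.6 and -14.9 and the 34 between -2.74 and 27.6. The share of counts from 15 mitochondrial genes was 6.76% to 10.3% in the 25 and 4.96% to 7.83% in the 34. Each library's slope of log2 level on GC content, relative to each gene's mean and per 10 percentage points, ran from -0.255 to -0.0569 in the 25 and from -0.0627 to 0.191 in the others. The part of these library properties in the differences reported here was not tested beyond the values given beside each result.

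RefSeq promoter windows were searched for 6 of the 9 genes, namely Mag, Mog, Mobp, Cnp, Cldn11 and Opalin. Mbp was left out of the search. The genes moved together across libraries, and the ratio of Mag to Mog separated the lithium from the vehicle libraries. For these reasons windows of 4 of the 6 are shown. Each runs from 250 bases before the start to 50 bases after it (GRCm38.p6, 5′ to 3′ on the gene's strand). Capitals mark letters of ACAAAG, a core that SOX proteins recognise, and of CTGGCAC or CTGGTAC, forms of the MYRF motif, on either strand. Mag has several annotated starts, of which the first is shown. The Mag window lies at chr7:30914814-30915113, minus strand, Mog at chr17:37023349-37023648, minus strand, Mobp at chr9:120149492-120149791, plus strand, and Cnp at chr11:100574689-100574988, plus strand.
Mag: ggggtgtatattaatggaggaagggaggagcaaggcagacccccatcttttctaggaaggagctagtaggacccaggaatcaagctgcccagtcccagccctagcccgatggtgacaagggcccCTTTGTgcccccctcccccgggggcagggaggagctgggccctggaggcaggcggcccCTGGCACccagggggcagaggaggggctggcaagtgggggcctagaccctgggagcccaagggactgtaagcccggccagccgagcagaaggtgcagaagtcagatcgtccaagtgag
Mog: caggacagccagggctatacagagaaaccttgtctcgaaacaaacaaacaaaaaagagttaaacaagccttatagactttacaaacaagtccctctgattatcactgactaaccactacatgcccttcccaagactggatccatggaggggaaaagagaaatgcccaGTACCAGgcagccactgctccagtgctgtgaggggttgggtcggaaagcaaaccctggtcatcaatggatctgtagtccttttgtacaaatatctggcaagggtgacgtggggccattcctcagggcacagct
Mobp: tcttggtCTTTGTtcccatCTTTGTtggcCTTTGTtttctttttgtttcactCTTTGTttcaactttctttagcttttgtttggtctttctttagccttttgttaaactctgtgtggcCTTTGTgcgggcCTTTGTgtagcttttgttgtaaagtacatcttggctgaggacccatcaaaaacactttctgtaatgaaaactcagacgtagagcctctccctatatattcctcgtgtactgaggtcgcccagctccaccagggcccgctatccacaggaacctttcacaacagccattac
Cnp: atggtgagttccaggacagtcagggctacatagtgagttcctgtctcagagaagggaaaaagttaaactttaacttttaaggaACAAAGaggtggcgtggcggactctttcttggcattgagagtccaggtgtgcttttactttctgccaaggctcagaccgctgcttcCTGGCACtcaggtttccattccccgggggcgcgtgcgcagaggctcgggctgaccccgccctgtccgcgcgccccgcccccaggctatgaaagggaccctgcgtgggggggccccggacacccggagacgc
Mag and Cnp held 1 SOX and 1 MYRF match each, Mobp 6 SOX matches and Mog 1 MYRF match; the Opalin window held 2 SOX and 1 MYRF match and the Cldn11 window none. ACAAAG was present in windows of 4 of the 6 genes and a MYRF motif in 4 of the 6. Over all 32851 promoter windows of this length, ACAAAG was found in 18.7%, CTGGCAC in 5.01%, CTGGTAC in 2.24% and either MYRF form in 7.10%. A match is a string of letters and not a binding measurement.

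All 9 genes passed the filter on low values and none was at 0 in any library. Per kilobase of the longest GENCODE transcript, mean levels over the 59 libraries spanned a wide range. Mbp, the basic protein that holds the cytoplasmic faces of compact myelin together, stood highest at 10387 ± 4171 normalised counts per kb (SD, n = 59). Mobp, another small basic protein of the same compartment, followed at 4076 ± 1758, and Cnp, the 2′,3′-cyclic nucleotide phosphodiesterase, at 2271 ± 767. Cldn11, the tight-junction claudin of myelin, and Mag, a sialic-acid-binding adhesion protein of the axon-facing layer, were close to each other, and Cldn11 exceeded Mag in 54 of 59 libraries. Mog, an immunoglobulin-domain protein of the outer myelin surface, averaged 721 ± 305 per kb. The transcription factors and Opalin, a membrane glycoprotein of the myelin paranodes, were lowest, with Sox10 at 285, Myrf at 142 and Opalin at 113 per kb. Myrf exceeded Opalin in 46 of 59 libraries, and every other neighbouring pair kept its order in 59 of 59.

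The spread between mice of 1 group was wide and shared by all 9 genes. Mbp ran from 17193 to 100577 normalised counts over the 59 libraries, a 5.85-fold range, and Opalin over a 6.23-fold range. Within the 4 HT vehicle males, Mbp was 21151, 43199, 90318 and 21855 normalised counts. In the 5 WT vehicle males it was 17331, 39669, 25868, 38160 and 50632. The third HT vehicle male exceeded every WT vehicle male, while the first and the fourth HT vehicle males lay below 4 of the 5. The range within a group reached 5.42-fold for Opalin, 5.28-fold for Mobp and 4.82-fold for Mog, and 2.44-fold for Sox10, the factor that already marks precursors. The lowest value of any of the 9 genes was 106 normalised counts, for Opalin.

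**Figure D1:**
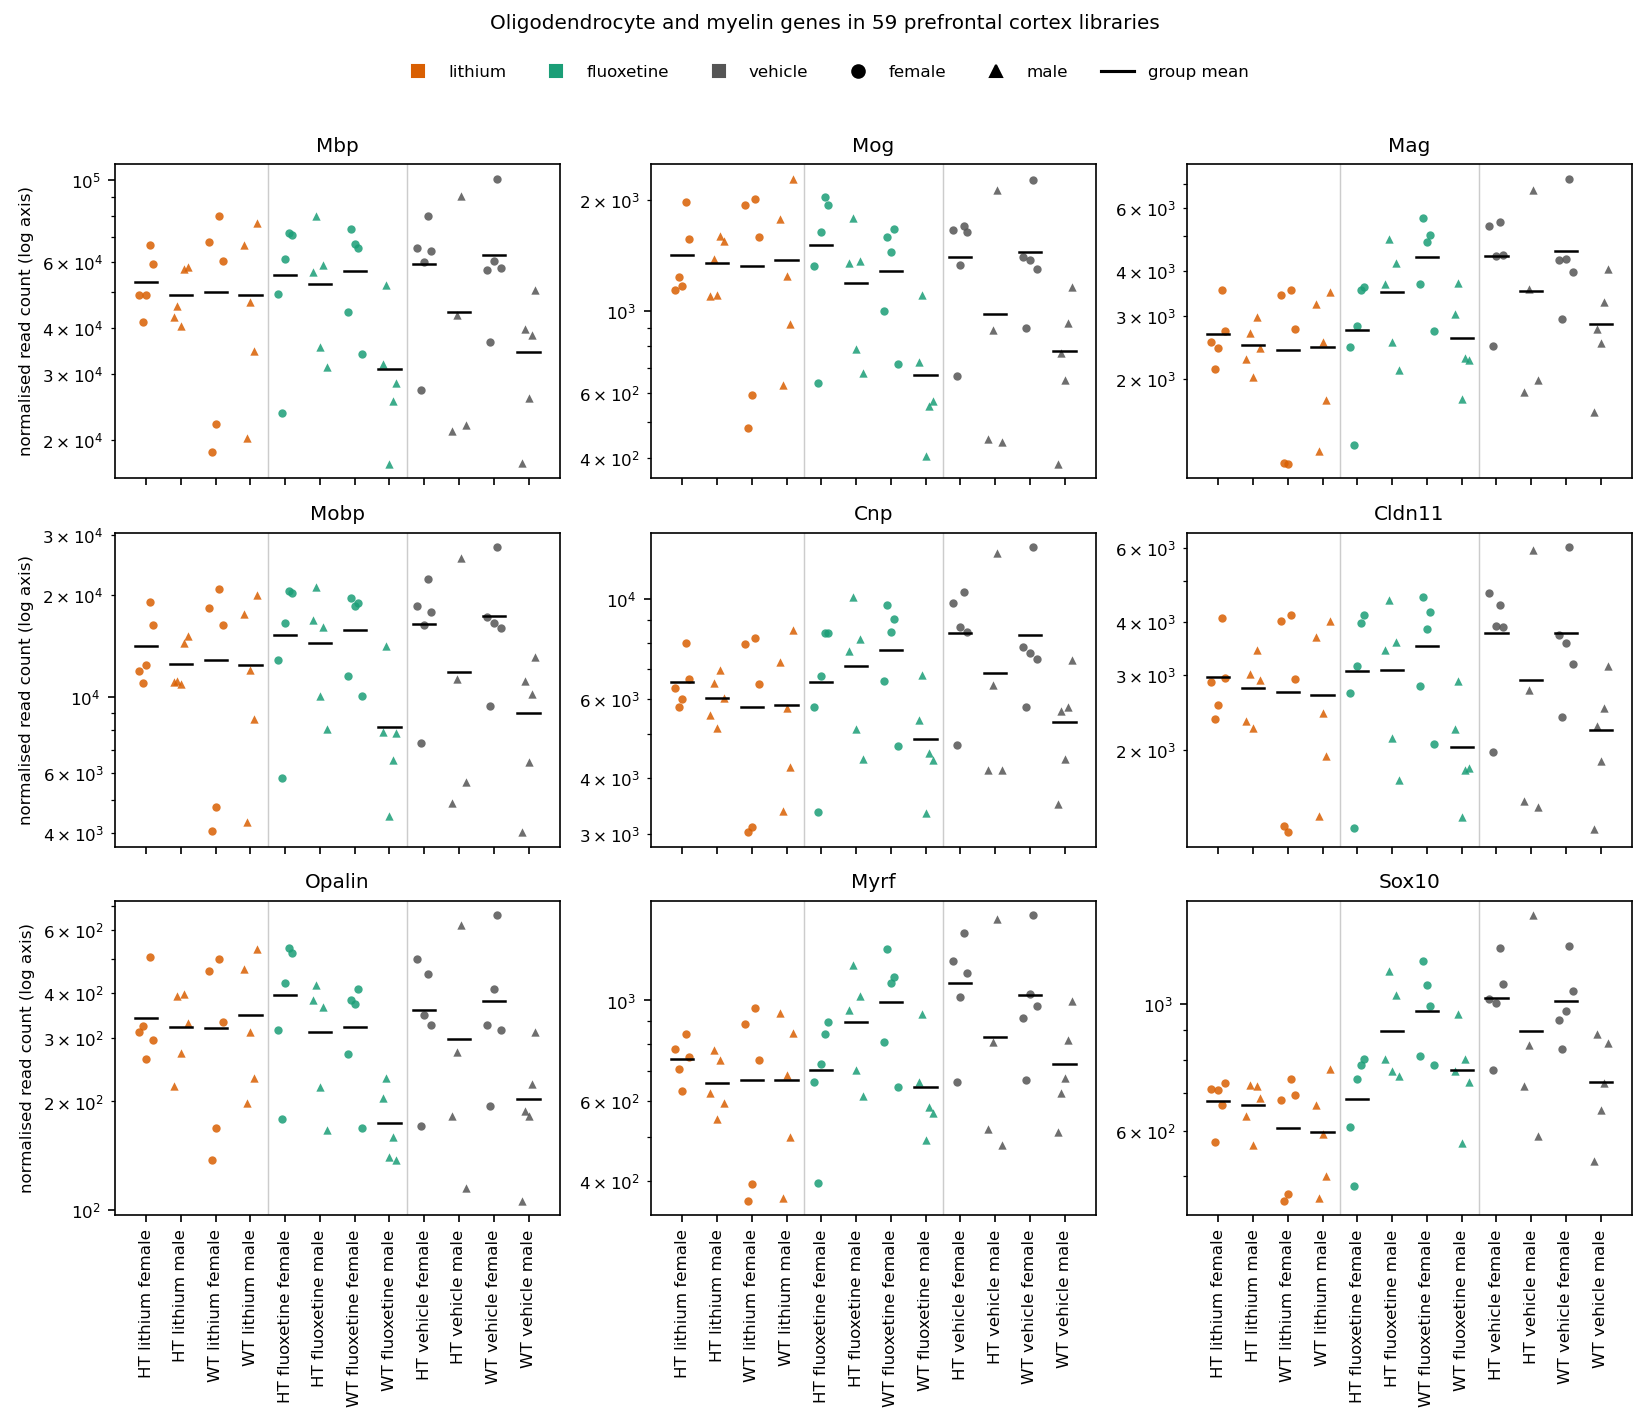
Normalised read counts (log axis) of the 9 genes in each of 59 libraries, with the 12 groups of genotype, treatment and sex along the horizontal axis; circles are females, triangles males and bars group means. Libraries of 1 group spread up to 5.42-fold, and Sox10 and Mag sit low in the lithium groups and in HT fluoxetine females.

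With group means subtracted, the pairwise correlations of the 9 genes over 59 libraries ran from 0.87 to 0.99 with a median of 0.97. These are descriptions: the points share their library, its dissection and its depth. Without subtracting group means the lowest values were 0.54, for Sox10 with Mog and with Opalin. The genes outside the list most like the mean of the 9, with group means subtracted, included Fa2h and Mal at r = 0.99, then Plekhh1, Prr18, Gpr37, Tmem88b, Ermn, Tspan2 and Adamts4 at 0.97 or above. Fa2h makes the 2-hydroxy fatty acids of myelin galactolipids, and Mal encodes a myelin proteolipid. Crhr1, a receptor for corticotropin-releasing hormone, and Vip, a neuropeptide of a class of interneurons, were the most opposed, at -0.91 and -0.89.

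Lists of other cells and regions were set beside the 9 genes in the same way. The list of 27 other myelin and oligodendrocyte genes correlated at 0.99, regulators of myelination at 0.93, newly formed oligodendrocytes at 0.93 and precursors at 0.75. Markers of the deep cortical layers and subplate reached 0.80 over the 6 of 7 that were measured, and striatal markers 0.66. Meningeal and fibroblast markers ran the other way at -0.62. Neuron markers stood at 0.23, astrocyte markers at -0.11 and microglia markers at -0.27. The summed level of the 6 deep-layer markers ran from 2085 to 5470 normalised counts over libraries, that of the 10 meningeal markers from 15953 to 42094, and no deep-layer, striatal or meningeal marker was at 0 in any library. The part of dissection in the shared spread was not tested.

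**Figure D2:**
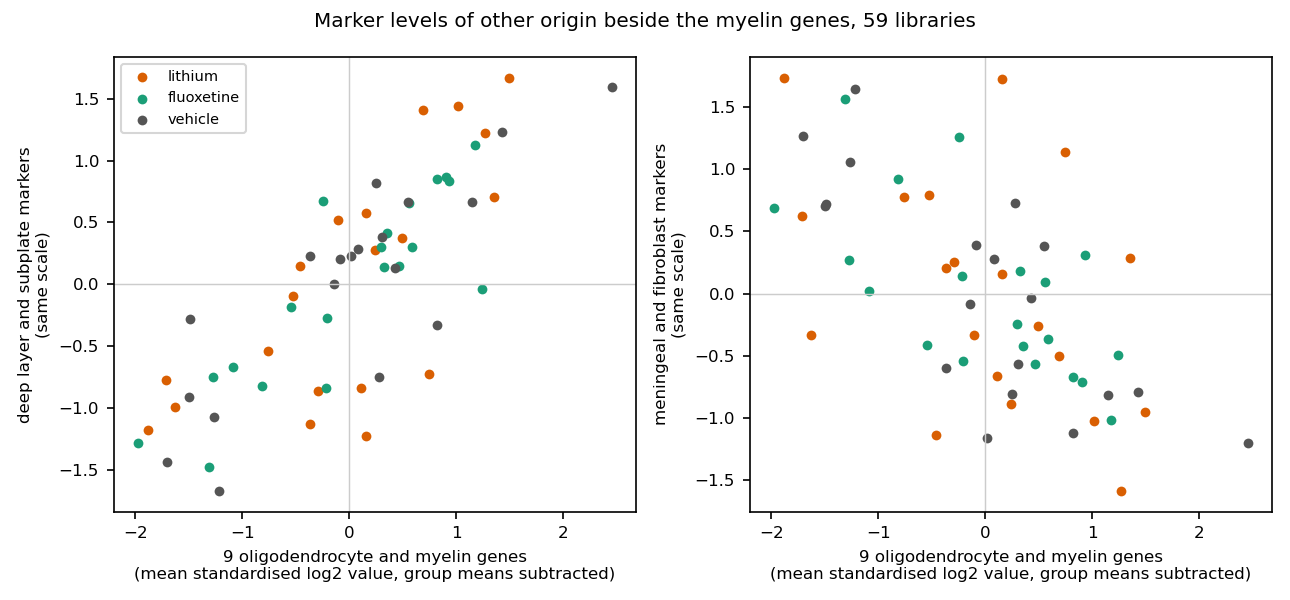
Each point is 1 of 59 libraries, coloured by treatment; the horizontal axis is the mean standardised log2 value of the 9 genes and the vertical axis that of a marker list, both with group means subtracted. Deep-layer and subplate markers rise with the 9 genes (r = 0.80) and meningeal markers fall (r = -0.62).

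Lithium against vehicle asked whether the drug altered these genes across both genotypes and sexes. Mag, Myrf and Sox10 fell, and the other 6 genes, including the compact-myelin genes Mbp and Mobp, did not pass the test. Fold changes are on the log2 scale of the value plus 1, with the SE of a limma fit over 17891 genes and p-values adjusted over all of them. So 3 of 9 genes were called, against 63.1% of all genes tested in this comparison, and 3 of 9 fell, against 30.4%. The median of the 9 was -0.12, against 0.02 over all genes.

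Sox10 (ENSMUSG00000033006, chr15:79154908-79165240, minus strand), the SOX factor of the oligodendrocyte lineage, had normalised counts from 453 to 770 with a median of 673 in the 20 lithium libraries, against vehicle values of 531 to 1432 (median 886, 19 libraries). The ranges overlapped, and 19 of 20 lithium libraries lay below the mean of the vehicle group of their own genotype and sex. Its log2 fold change was -0.50 ± 0.090 (adjusted p = 3.51e-06, limma). Mag (ENSMUSG00000036634, chr7:30899176-30914873, minus strand) ran from 1161 to 3535 with a median of 2537 under lithium, against 1623 to 7237 with a median of 3988 under vehicle, and 18 of 20 lithium libraries lay below their matched vehicle mean. The change was -0.57 ± 0.165 (adjusted p = 0.00229, limma). Myrf (ENSMUSG00000036098, chr19:10208272-10240748, minus strand), the membrane-bound factor that switches on myelin genes in maturing oligodendrocytes, had 362 to 960 with a median of 723 under lithium, against 480 to 1542 with a median of 913 under vehicle. It changed by -0.39 ± 0.139 (adjusted p = 0.0134, limma), with 17 of 20 libraries below the matched mean. Leaving out any 1 of the 59 libraries kept all 3 calls, with adjusted p up to 0.00836 for Mag, 0.0446 for Myrf and 1.17e-05 for Sox10.

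The 6 uncalled genes spread on both sides of 0. Mog had the highest value, with 480 to 2278 normalised counts and a median of 1312 under lithium, against 384 to 2253 and a median of 1160 under vehicle. Its log2 difference was 0.32 ± 0.197 (adjusted p = 0.153, limma), and without the third HT vehicle male, the highest of that group, it was called at an adjusted p of 0.0387. Opalin differed by 0.19 ± 0.188, Mbp by 0.07 ± 0.195 and Mobp by -0.01 ± 0.216. Cldn11 differed by -0.12 ± 0.176 and Cnp by -0.22 ± 0.148. The 95% interval for Mbp ran from -0.33 to 0.46.

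**Figure D3:**
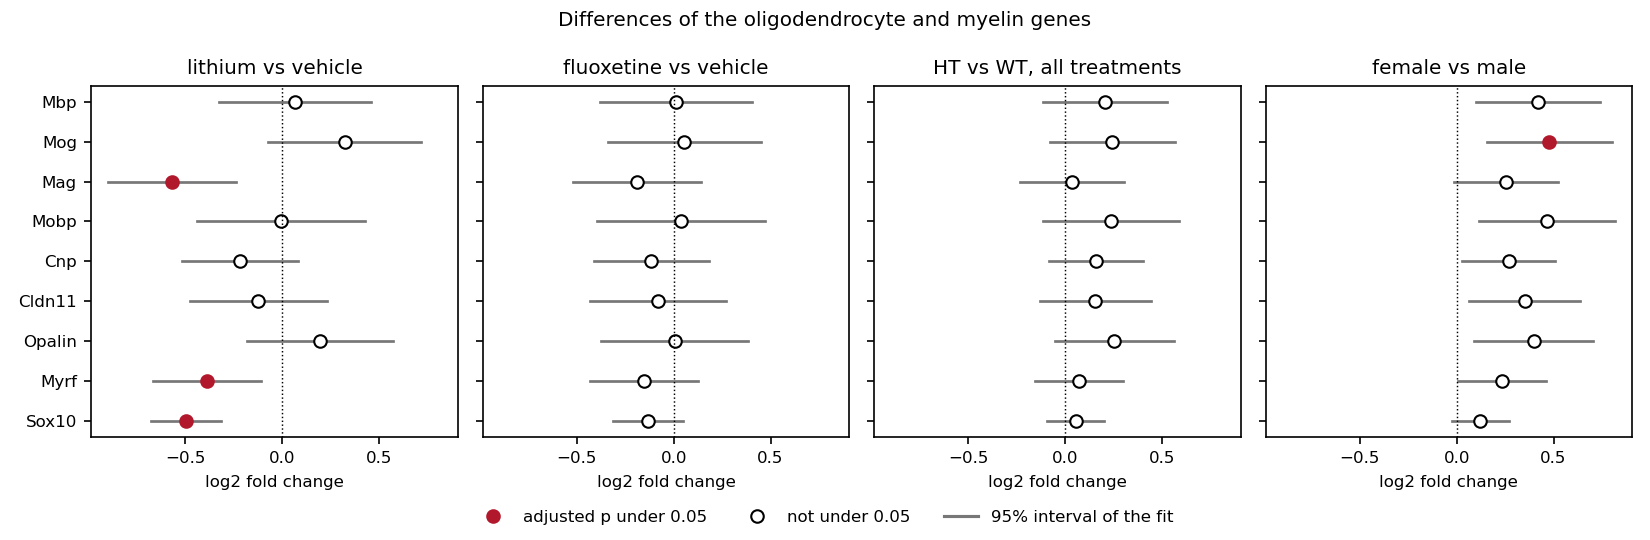
Log2 fold changes of the 9 genes (points) with the 95% interval of the limma fit (lines) for lithium against vehicle, fluoxetine against vehicle, HT against WT and female against male; filled points have an adjusted p under 0.05. Mag (-0.57), Myrf (-0.39) and Sox10 (-0.50) were lower under lithium, all 9 values for sex are above 0 with only Mog (0.48) called, and the fluoxetine and genotype panels hold no call.

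Other genes of the lineage were read from lists. Of 27 other myelin and oligodendrocyte genes 3 rose and 5 fell under lithium, with a median of -0.09; called members included Trf, transferrin (-0.50 ± 0.135), Jam3, a junctional adhesion protein (0.21 ± 0.064), and S1pr5, a sphingosine-phosphate receptor (-0.45 ± 0.136). Of 14 precursor genes 8 fell and 0 rose, among them Cspg4, the NG2 proteoglycan (-0.52 ± 0.039), Matn4, a matrix protein (-0.50 ± 0.051), and Gpr17, a receptor of committed precursors (-0.38 ± 0.052). Among 20 regulators 3 rose and 10 fell. Id2 (0.30 ± 0.020) and Zfp24 (0.24 ± 0.025) rose, while Sox8 (-0.63 ± 0.046), the close relative of Sox10, and Nkx2-2 (-0.66 ± 0.080), a homeobox factor of the lineage, fell. Of 11 measured genes of newly formed oligodendrocytes 1 rose and 5 fell: Nkx2-2 again, Itpr2 (-0.29 ± 0.043) and Tcf7l2 (-0.41 ± 0.116) fell and Rras2 (0.15 ± 0.044) rose. Of 15 genes of myelin lipid synthesis 1 rose and 7 fell, among them the sterol enzyme Dhcr7 (-0.37 ± 0.036), with Sgms1, a sphingomyelin synthase, higher (0.34 ± 0.036) and Fdft1, squalene synthase, lower (-0.19 ± 0.033). The cholesterol genes are used by neurons and astrocytes as well. With 63.1% of all genes called, the counts of these lists are descriptions.

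The 9 lithium differences tended to be lower in genes of higher GC content, though the 2 orders were not the same. Opalin (45.8% GC) and Mog (50%) had the highest values, and Mag (57.6%), Myrf (57.6%) and Sox10 (61.8%) the lowest. Across the 9 genes the correlation of GC content with the lithium difference was -0.88, across the 27 other myelin genes -0.78 and across 17880 genes -0.46. Genes within a library are not independent, so these are descriptions. When a smooth trend on GC content and length was removed from each library, Mag changed by -0.38 (adjusted p = 0.0476, limma) and Sox10 by -0.21 (adjusted p = 0.0358), and Myrf was at -0.06 (adjusted p = 0.740). When the GC and length slopes of each library entered as covariates, 8 of 9 genes were called for lithium against vehicle, where 10.2% of all genes were. Mag (1.80, adjusted p = 0.0294, limma) and Myrf (1.76, adjusted p = 0.0102) were called with the opposite sign there, and Sox10 stood at 0.66 and was not called (adjusted p = 0.196). The GC slopes barely overlap between lithium and vehicle libraries and the length slopes do not, so these covariate values extrapolate beyond the libraries. Markers of other cells were counted for the same comparison without covariates. There 63.1% of all genes were called, and 30.4% were called lower. Of 12 neuron markers 1 rose and 9 fell, of 10 endothelial markers 1 rose and 8 fell, of 12 astrocyte markers 1 rose and 7 fell, of 12 microglia markers 4 rose and 3 fell, and of 10 meningeal markers 4 rose and 5 fell. Of the region markers, 0 of 6 deep-layer and 0 of 9 olfactory bulb markers were called, 1 of 9 striatal markers rose and 1 fell, and 1 of 4 choroid plexus markers rose. The summed meningeal level ran from 20972 to 42094 normalised counts under lithium, against 15953 to 35788 under vehicle, and its part in the result was not tested.

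**Figure D4:**
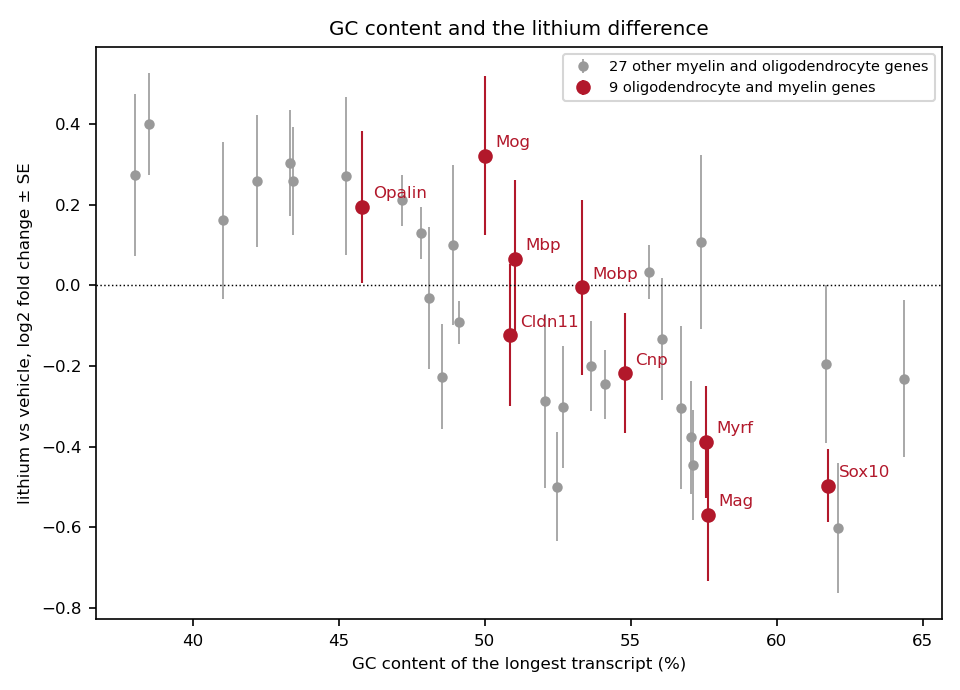
Log2 fold change of lithium against vehicle (vertical axis, ± SE) against the GC content of the longest transcript in percent for the 9 genes (red) and 27 other myelin and oligodendrocyte genes (grey). Values fall with GC content, with r = -0.88 over the 9 genes and -0.78 over the 27.

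Mag and Mog, both immunoglobulin-domain proteins of the myelin membrane, gave the sharpest contrast inside the list. The log2 ratio of Mag to Mog in normalised counts, which compares libraries and not the levels of the genes, was 0.93 ± 0.165 in HT lithium females, 0.90 ± 0.143 in HT lithium males, 0.94 ± 0.205 in WT lithium females and 0.89 ± 0.166 in WT lithium males (SD, n = 5 each). It was 0.89 ± 0.106 in HT fluoxetine females, against 1.58 ± 0.109 in HT fluoxetine males, 1.79 ± 0.132 in WT fluoxetine females and 1.996 ± 0.149 in WT fluoxetine males. In the vehicle groups it was 1.69 ± 0.163 in HT females, 1.97 ± 0.218 in HT males (n = 4), 1.66 ± 0.0379 in WT females and 1.90 ± 0.112 in WT males.

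The 25 libraries that stood apart spanned 0.62 to 1.29, against 1.44 to 2.17 in the 34 others, with no overlap. Of the 36 pairs of the 9 genes, 2 had ratios that did not overlap between these sets, Mag with Mog and Mag with Cldn11, against 1.98% of all pairs of the 17891 genes tested. Between the lithium and the vehicle libraries 3 pairs did not overlap, the same 2 and Mag with Mbp, against 3.12% of all pairs. The HT fluoxetine females sat with the lithium groups on this measure, as they did on the first principal component. They belong to the 25 by definition, and the pair was singled out in these same data. Their place on this ratio is therefore a description and no separate support for that set. Mag is richer in GC than Mog, 57.6% against 50%, and the part of that difference in the ratio was not tested.

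**Figure D5:**
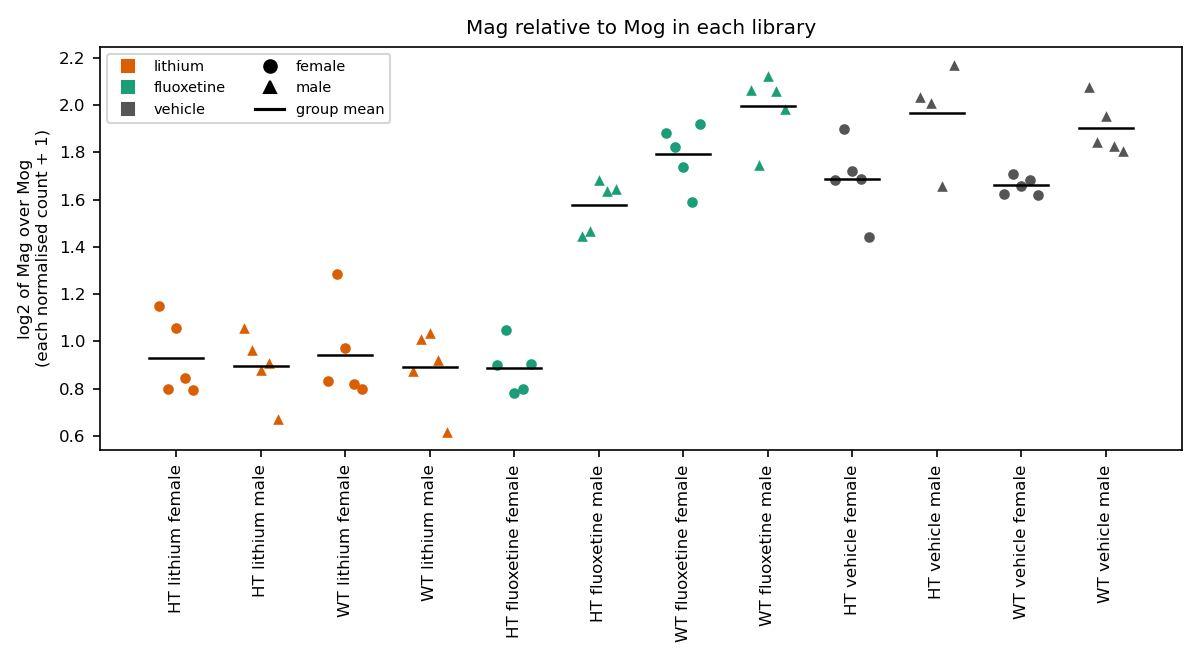
Log2 of Mag over Mog (each normalised count plus 1) in every library by group; circles are females, triangles males and bars group means. The lithium groups and HT fluoxetine females lie between 0.62 and 1.29, below all other groups, which lie between 1.44 and 2.17.

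Setting the level of the other myelin genes as a covariate asked how the 9 genes differed at a given overall myelin signal; this fit was chosen after the data were seen. The SE of Mag for lithium against vehicle was 0.028 there, against 0.165 without the covariate. In this fit 7 of 9 genes were called for lithium against vehicle, where 64.6% of all genes were. Mag (-0.49 ± 0.028), Sox10 (-0.46 ± 0.035), Myrf (-0.33 ± 0.038) and Cnp (-0.15 ± 0.021) fell. Mog (0.41 ± 0.028), Opalin (0.28 ± 0.059) and Mbp (0.15 ± 0.033) rose (adjusted p at most 6.14e-05 for the 7, limma). The same fit called 5 of 9 for fluoxetine against vehicle, where 22.1% of all genes were, 7 of 9 for fluoxetine in HT (33.5%) and 0 of 9 for fluoxetine in WT (1.25%). It called 0 of 9 for HT against WT under vehicle (0.218%) and 5 of 9 under fluoxetine (35.3%). The list of other myelin genes itself holds members that lithium changed, so these values are relative to that list.

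Within genotypes, lithium gave similar values. In HT mice Sox10 changed by -0.47 ± 0.129 (adjusted p = 0.00189, limma) and in WT mice by -0.52 ± 0.125 (adjusted p = 0.000362). Mag differed by -0.50 ± 0.236 in HT (adjusted p = 0.0711) and changed by -0.63 ± 0.229 in WT (adjusted p = 0.0170). So 1 of 9 genes was called in HT, where 50.6% of all genes were, and 2 of 9 in WT, where 52.9% were. The WT call of Mag was lost without lithium female 2 or 3 or lithium male 2 of the WT mice (adjusted p = 0.0510, 0.0525 and 0.0512). In HT, Mag was called without vehicle female 2 or vehicle male 1 or 4 (adjusted p = 0.0327, 0.0289 and 0.0355). After removal of the GC and length trend, 0 of 9 were called in either genotype, against 28.9% of all genes in HT and 34.9% in WT. Sox10 was then at -0.18 in HT (adjusted p = 0.292, limma) and -0.25 in WT (adjusted p = 0.0994), and Mag at -0.46 in WT (adjusted p = 0.109). The difference between genotypes in the lithium effect was called for 0 of 9 genes by limma, with 0 at an unadjusted p under 0.05, and 0 by edgeR and DESeq2; the background was 0% of all genes. The Sox10 difference of effects was 0.06 ± 0.180 and that of Mag 0.13 ± 0.329.

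The lithium values were also split by sex. In WT females Mag changed by -1.02 ± 0.324, Sox10 by -0.76 ± 0.177 and Myrf by -0.68 ± 0.274 (adjusted p = 0.00983, 0.000490 and 0.0456, limma), and in HT females Sox10 changed by -0.59 ± 0.177 (adjusted p = 0.00659). In males 0 of 9 were called in either genotype, and Mog stood at 0.76 ± 0.412 in HT males and 0.76 ± 0.389 in WT males. The background in these 4 comparisons was 37.7% in HT females, 38.9% in HT males, 37.8% in WT females and 43.5% in WT males. The difference of the lithium effect between females and males, a comparison added after the data were seen, was below 0 for 9 of 9 genes, from -0.88 for Mog to -0.35 for Sox10. None of the 9 passed (limma, background 0.0112%), 1 had an unadjusted p under 0.05, and edgeR and DESeq2 called 0.

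Lithium against fluoxetine called 2 of 9 genes, against 53.9% of all genes. Sox10 ran from 453 to 770 normalised counts under lithium, against 480 to 1192 under fluoxetine, a change of -0.37 ± 0.088 (adjusted p = 0.000414, limma). Mag ran from 1161 to 3535 under lithium, against 1316 to 5618 under fluoxetine, a change of -0.38 ± 0.162 (adjusted p = 0.0424). The call of Mag rested on single libraries: leaving out any of 20 libraries lost it, with adjusted p from 0.0505 to 0.0821. These were HT lithium females 1, 2 and 3, HT lithium males 1 and 3, WT lithium females 2 and 3, WT lithium males 2 and 4, HT fluoxetine females 3, 4 and 5, HT fluoxetine males 1, 2 and 4, WT fluoxetine females 2, 3 and 4, and WT fluoxetine males 1 and 2. After removal of the GC and length trend, 0 of 9 were called, against 34.5% of all genes, with Mag at -0.25 (adjusted p = 0.237, limma) and Sox10 at -0.13 (adjusted p = 0.237). The call of Mag was also lost under a robust variance prior (adjusted p = 0.0520) and quantile normalisation (adjusted p = 0.0664). Split by genotype and sex, the WT males gave calls for Mog (0.97 ± 0.389, adjusted p = 0.0401, limma) and Opalin (0.92 ± 0.371, adjusted p = 0.0403), which rose under lithium, 2 of 9 against 42.1% of all genes. The WT females gave calls for Mag (-0.98 ± 0.324, adjusted p = 0.0124) and Sox10 (-0.69 ± 0.177, adjusted p = 0.00126), 2 of 9 against 40.8%. In HT males and HT females 0 of 9 were called, against 31.5% and 0.0559%. Without all 5 HT fluoxetine females Mag changed by -0.52 (adjusted p = 0.0146, limma) and Sox10 by -0.49 (adjusted p = 4.64e-05). That comparison also leaves out the HT lithium females, which then have no counterpart.

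The lineage lists under lithium against fluoxetine gave 2 rises and 2 falls among the 27 other myelin genes. As 53.9% of all genes were called in this comparison, the counts of the lists are descriptions. S1pr5 (-0.43 ± 0.134) fell, and Aspa, which splits N-acetylaspartate in oligodendrocytes (0.35 ± 0.125), and Evi2a (0.36 ± 0.132) rose. Of 14 precursor genes 5 fell, led by Cspg4 (-0.33 ± 0.039), Matn4 (-0.37 ± 0.050), Gpr17 (-0.34 ± 0.051) and the sialidase Neu4 (-0.24 ± 0.065). Among regulators 3 rose and 6 fell, with Id2 (0.25 ± 0.019) higher and Lingo1 (-0.28 ± 0.040) and Sox8 (-0.29 ± 0.045) lower. Of the newly formed list 1 rose and 4 fell, with Nkx2-2 at -0.37 ± 0.079, Itpr2 at -0.17 ± 0.042, Cnksr3 at -0.38 ± 0.115 and Rras2 at 0.16 ± 0.043. Of the lipid list 4 rose and 3 fell, among them the sterol enzymes Cyp51 (0.17 ± 0.042), Lss (0.14 ± 0.034) and Dhcr7 (-0.18 ± 0.035).

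Fluoxetine against vehicle, which uses the same vehicle libraries as the lithium comparison, called 0 of 9 genes, against 20% of all genes. By limma 0 had an unadjusted p under 0.05, and edgeR and DESeq2 called 0. Sox10 had 480 to 1192 normalised counts with a median of 792 in the 20 fluoxetine libraries, against vehicle values of 531 to 1432 (median 886, 19 libraries). The groups overlapped, and the difference was -0.13 ± 0.090. Mag had the lowest value, -0.19 ± 0.165, and Mog the highest, 0.05 ± 0.197. In WT mice 0 of 9 were called, against 1.02%, and in HT mice 0 of 9, against 31.2%. The genotype difference of the fluoxetine effect was called for 0 of 9, against 20.6%. The 95% intervals for single genes under fluoxetine lay between -0.52 and 0.47.

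Some genes of the lineage outside the 9 changed under fluoxetine against vehicle, where 20% of all genes were called. None of the 27 other myelin genes was called. Of 15 lipid genes 8 fell and 1 rose, with Lss at -0.20 ± 0.034, Hmgcs1 at -0.24 ± 0.046 and Sgms1 at 0.26 ± 0.036. The precursor genes Cspg4 (-0.19 ± 0.039) and Sox6 (-0.11 ± 0.031) were among 3 of 14 that fell. Of the newly formed list Nkx2-2 (-0.29 ± 0.080) and Itpr2 (-0.12 ± 0.043) fell, and of the regulators Sox8 (-0.34 ± 0.046), Nkx2-2 and Zeb2 (-0.14 ± 0.044) fell while Zfp24 (0.08 ± 0.025) rose. Without the HT fluoxetine females 372 of all genes were called for fluoxetine against vehicle, against 3579 with them. That smaller comparison also leaves out the HT vehicle females, which then have no counterpart.

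The HT fluoxetine females, which stood apart with the lithium libraries, were also set against HT vehicle females alone. Their Sox10 was 609, 480, 739, 783 and 801 normalised counts, against 1021, 767, 1004, 1254 and 1085 in HT vehicle females. Only the lowest vehicle value lay inside the fluoxetine range, and Sox10 changed by -0.60 ± 0.177 (adjusted p = 0.00570, limma). It was the 1 gene of 9 called in this pair of groups, where 38.3% of all genes were. Mag differed by -0.72 ± 0.324 (adjusted p = 0.0743) and Mog by 0.08 ± 0.389. HT fluoxetine males against HT vehicle males had 0 of 9 called (background 0.162%) and values from 0.06 for Sox10 to 0.53 for Mobp. The difference of the fluoxetine effect between HT females and HT males was called for 0 of 9 (background 15.2%), with Sox10 at -0.66 ± 0.258 (adjusted p = 0.0739) and Myrf at -0.87 ± 0.400 (adjusted p = 0.138). Both were called without the third HT vehicle male (adjusted p = 0.00715 for Sox10 and 0.0257 for Myrf), and Sox10 also without the second HT vehicle female (adjusted p = 0.0421). HT lithium females against HT fluoxetine females gave values between -0.15 and 0.12, with 0 of 9 called (background 0.0559%).

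The libraries labelled HT gave no call against those labelled WT in the comparison over all treatments. Over all treatments 0 of 9 were called, against 14.7% of all genes, with 0 at an unadjusted p under 0.05 by limma and 0 called by edgeR and DESeq2. All 9 values were above 0, from 0.04 ± 0.134 for Mag to 0.25 ± 0.153 for Opalin. Mbp had 21151 to 90318 normalised counts in HT and 17193 to 100577 in WT, and 21 of 29 HT libraries lay above the mean of the WT group of their treatment and sex. Under vehicle 0 of 9 were called (background 0.106%), under fluoxetine 0 of 9 (33.3%) and under lithium 0 of 9 (0.386%). The highest values were those of Opalin (0.52 ± 0.262) and Mog (0.51 ± 0.275) under fluoxetine. Split by sex under fluoxetine, 1 of 9 was called in females (background 39.5%), where Sox10 changed by -0.52 ± 0.177 (adjusted p = 0.0165, limma), and 0 of 9 in males (background 1.6%). Without the HT fluoxetine females, 530 of all genes were called between genotypes over all treatments, against 2637 with them, and 0 of the 9. That smaller comparison also leaves out the WT fluoxetine females, which then have no counterpart.

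Of the lineage lists, the 27 other myelin genes held no call between genotypes over all treatments, with 23 of 27 values above 0. This comparison called 14.7% of all genes, against 0.106% under vehicle, 0.386% under lithium and 33.3% under fluoxetine. The part of the HT fluoxetine females in the list values below was not tested. Precursor genes Matn4 (-0.15 ± 0.041) and Cspg4 (-0.10 ± 0.032) were lower in the libraries labelled HT, as were Itpr2 (-0.13 ± 0.035) and Lingo1 (-0.09 ± 0.033), and Fyn, a kinase of differentiating oligodendrocytes, was higher (0.05 ± 0.017). All 6 of 6 deep-layer values were above 0 with 0 called, and 3 of 10 meningeal markers fell; their part in the member values was not tested.

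Females exceeded males in the mean of all 9 genes, by 0.12 to 0.48 on the log2 scale, and Mog alone was called. Mog had 480 to 2253 normalised counts with a median of 1419 in 30 female libraries, against male values of 384 to 2278 (median 924, 29 libraries). The ranges overlapped almost wholly, and 23 of 30 female libraries lay above the mean of the male group of their genotype and treatment. It rose by 0.48 ± 0.160 (adjusted p = 0.04995, limma), 1 of 9 against 8.76% of all genes. Mobp differed by 0.47 ± 0.176 (adjusted p = 0.0807) and Mbp by 0.42 ± 0.159 (adjusted p = 0.0821). At an unadjusted p under 0.05 there were 7 of 9. By edgeR 0 were called and by DESeq2 2. The Mog call was lost on leaving out any of 43 of the 59 libraries (adjusted p = 0.0501 to 0.0830). Leaving out any of 16 kept it: HT lithium female 1, HT lithium male 5, WT lithium females 2 and 3, WT lithium males 1 and 5, HT fluoxetine female 2, HT fluoxetine males 1 and 2, WT fluoxetine female 5, WT fluoxetine male 2, HT vehicle female 2, HT vehicle male 3, WT vehicle female 2, and WT vehicle males 4 and 5. Without the 5 HT fluoxetine females Mog differed by 0.51 (adjusted p = 0.248, limma), with 27 genes called in all. That smaller comparison also leaves out the HT fluoxetine males, which then have no counterpart.

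The difference between females and males was also taken within each genotype and treatment. It ran from 0.48 to 0.99 over the 9 genes in WT vehicle mice, from 0.34 to 0.99 in WT fluoxetine mice and from 0.26 to 0.76 in HT vehicle mice. It was -0.40 to 0.33 in HT fluoxetine mice, 0.02 to 0.18 in HT lithium mice and -0.20 to 0.02 in WT lithium mice. In each of these 6 comparisons 0 of 9 genes were called, against backgrounds of 0.492%, 0.0615%, 0.0671%, 31.8%, 0.0559% and 0.0671% in the order given, and 8 of 9 had an unadjusted p under 0.05 in WT vehicle and in WT fluoxetine mice. Whether the sex difference differs between the vehicle and the lithium groups is the comparison of lithium effects between the sexes given above, in which 0 of 9 were called. Mobp had the highest value in WT vehicle mice (0.99 ± 0.426) and in WT fluoxetine mice (0.99 ± 0.426). Mbp in WT vehicle females was 57222, 36582, 60505, 100577 and 57854 normalised counts, against 17331, 39669, 25868, 38160 and 50632 in WT vehicle males, where only the lowest female value fell among the males.

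Markers of neighbouring tissue were set beside the sex difference, for which 8.76% of all genes were called. The summed level of the 6 deep-layer markers had a median of 3881 normalised counts in females, against 3036 in males (ranges 2183 to 5470 and 2085 to 4981), with 0 of 6 called and 6 of 6 values above 0. The 10 meningeal markers had a median sum of 21983 in females, against 27361 in males, with 2 of 10 lower and 0 higher. Of the 27 other myelin and oligodendrocyte genes 4 rose in females and 0 fell, Ermn (0.55 ± 0.163), Aspa (0.34 ± 0.103), Gjc3 (0.33 ± 0.107) and Hapln2 (0.54 ± 0.175), and 26 of 27 values were above 0. Ugt8a, the enzyme that makes galactosylceramide, was higher in females (0.48 ± 0.148). Among regulators Id2 was higher (0.05 ± 0.016) and Lingo1 lower (-0.11 ± 0.033). With the GC and length trend removed from each library, 0.604% of all genes were called between the sexes. The few genes called without the HT fluoxetine females are counted above, and the part of that group in these list values was not tested. With the other myelin genes as a covariate Mog differed by 0.04 ± 0.024 between the sexes (adjusted p = 0.376). The part of dissection in the sex difference was not tested.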

How the data were processed

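Poly(A) RNA of 59 prefrontal cortex samples was sequenced with a stranded kit. The deposited values are a normalised signal that the authors made by dividing counts by 1 size factor per library. GRCm38, DESeq2 1.19.11, Salmon 0.11.2 and R 3.6.0 are listed, with no roles, per the submitters' processing notes; the annotation release and the gene filter are not given in the sources used here. Whole reads were recovered from the step between values: 100% of values up to 1000 reads were whole within 0.01 read. Recovered reads were 24.99 to 32.87 M per library, size factors 0.827 to 1.129. Identifiers of 18077 of 18088 genes matched GENCODE.

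Genes with a value of at least 10 in at least 4 libraries (17891) were tested as log2(value + 1) with limma 3.58.1 in R 4.3.3, with a variance trend, 12 group means and 47 residual degrees of freedom. P-values were adjusted by Benjamini-Hochberg over all genes of a comparison, with a threshold of 0.05. The fit was tested on simulated data. On the recovered reads, edgeR 4.0.16 called 11214 and DESeq2 1.42.0 called 11223 genes for lithium against vehicle, and limma 11287. Figures were drawn with matplotlib 3.10.9 in Python 3.11.15.

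The members and lists were chosen with earlier results of these data known. Besides the 9 genes, the text names up to 4 called genes of each lineage list with the smallest p, and the 10 genes of mean 100 or more whose pattern was most like the members. Some genes that this rule names are not reported here. Lists covered other myelin genes, lipid synthesis, precursors, newly formed oligodendrocytes, regulators, astrocytes, microglia, endothelium, meninges, neurons, deep layers, striatum, olfactory bulb and choroid plexus. Deviations of libraries with the same replicate number correlated at 0.0231 on average over 319 pairs, with a lowest value of -0.510. This mean cannot show whether libraries were paired in some groups. The numbers are those of the sample titles, and HT vehicle males 3 and 4 have library numbers 4 and 5.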

Additional observations from a re-analysis of the deposited data

Results flagged for a closer look

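In 108 groups of 4 or 5 libraries of a member gene, 3 had a highest or lowest library separated from its neighbour by more than Dixon's critical value, and chance gives about 1 in 20. Cnp in the fourth WT vehicle female was 13067.6 normalised counts, the highest of its group. Cldn11 in the second HT vehicle female was 1972.41 normalised counts, the lowest of its group. Opalin in the fourth HT lithium female was 505.042 normalised counts, the highest of its group.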

How the results depend on the processing

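Over 16 alternatives, 2118 values of single members kept direction and side of the threshold, 110 passed it only under the alternative, 17 no longer passed and 32 reversed. The causes were not tested. Counts of the 9 genes called are given below. With the GC and length trend removed, lithium against vehicle (3) had 2, without Myrf, against 46.3% of all genes. For female against male limma called 1, where 8.76% of all genes were called. The count was 0 under a robust variance prior, median centring, no filter and a pseudocount of 0.5. It was also 0 without the HT fluoxetine females, which takes the HT fluoxetine males out of the comparison too. The count was 0 as well with the GC and length trend removed (0.604% of all genes) and in edgeR (1539 genes). DESeq2 gave 2 (1855 genes). For lithium against fluoxetine (2, against 53.9%) the count was 1 under a robust prior or quantile normalisation and 0 with the trend removed (34.5%). Lithium in HT (1, against 50.6%) gave 2 with only the groups compared and 0 with the trend removed (28.9%). It gave 3 in edgeR (9021 genes) and 2 in DESeq2 (9021 genes). Lithium in WT (2, against 52.9%) gave 0 with the trend removed (34.9%). Shares of all genes under the remaining alternatives of this paragraph are not given here.

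Percentages here are the shares of all genes called by the same fit. The residual principal component was taken from the deviations of these same libraries from their group means. It therefore left the log2 differences unchanged and could alter only their SE, so its counts are no independent check. With 1 residual principal component as a covariate the counts were 5 for lithium against vehicle (65.3%), 4 for lithium against fluoxetine (57%), 2 for HT against WT under fluoxetine (37.5%), 1 for fluoxetine in HT (34.5%), 4 for lithium in HT (53.6%), 2 for the fluoxetine effect in HT females minus males (19.3%), 8 for female against male (15.5%) and 1 for the lithium effect in females minus males (4.09%). With the other myelin genes as a covariate, added after seeing the data, they were 5 for fluoxetine against vehicle (22.1%), 7 for lithium against vehicle (64.6%), 7 for lithium against fluoxetine (56.2%), 2 for HT against WT (16%), 5 for HT against WT under fluoxetine (35.3%), 7 for fluoxetine in HT (33.5%), 7 for lithium in WT (54.7%), 8 for lithium in HT (52.9%), 5 for genotype by fluoxetine (22.7%), 3 for the fluoxetine effect in HT females minus males (15.6%) and 2 for female against male (3.64%). There Mag reversed in HT against WT (-0.11) and female against male (-0.11), Cnp in female against male (-0.062) and Mbp in lithium in WT (0.13).

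With GC and length slopes as covariates the counts were 2 for fluoxetine against vehicle (6.33%), 8 for lithium against vehicle (10.2%), 8 for lithium against fluoxetine (9.52%), 7 for HT against WT (14.3%), 8 for HT against WT under fluoxetine (10.5%), 6 for fluoxetine in HT (6.65%), 8 for lithium in WT (9.77%), 8 for lithium in HT (8.99%) and 8 for female against male (4.2%). The length slopes ran from -0.158 to -0.0237 in the 25 libraries that stood apart and from -0.00457 to 0.088 in the 34 others. Lithium and vehicle libraries thus share no range of length slope. The lithium against vehicle values below, within genotypes too, extrapolate beyond the libraries and cannot show an opposite effect. Reversed values for lithium against vehicle were Mag 1.80, Mobp 3.00, Cnp 1.77, Cldn11 2.25, Myrf 1.76 and Sox10 0.66. For lithium against fluoxetine they were Mag 1.34, Mobp 2.13, Cnp 1.35, Cldn11 1.69, Myrf 1.33 and Sox10 0.48. For HT against WT under fluoxetine they were Mag 1.10 and Myrf 1.13, and for fluoxetine in HT Cldn11 1.22 and Myrf 0.95. For lithium in WT they were Mbp 2.80, Mag 1.83, Mobp 3.02, Cnp 1.81, Cldn11 2.30, Myrf 1.81 and Sox10 0.66, and for lithium in HT Mag 1.77, Cnp 1.73, Cldn11 2.21, Myrf 1.71 and Sox10 0.65.

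Leaving out 1 library at a time, the count ran from 0 to 5 for female against male. It ran from 0 to 2 for the fluoxetine effect in HT females minus males and 0 to 1 for fluoxetine in HT. For lithium it ran from 3 to 4 against vehicle, 1 to 2 against fluoxetine, 1 to 2 in HT and 1 to 3 in WT. It stayed at 0 in the other 9 comparisons. Shares of all genes called in these fits are not given here. For female against male, Mbp and Mobp were gained without HT fluoxetine female 2, HT vehicle female 2, HT vehicle male 3 or WT lithium female 2, Opalin without the last 3 of these and Cldn11 without HT vehicle male 3. Sox10 for fluoxetine in HT was gained without HT vehicle male 4 (adjusted p = 0.0336, limma) and Mog for lithium in HT without HT vehicle male 3 (adjusted p = 0.0461). Myrf for lithium in WT (adjusted p = 0.0638) was gained without HT vehicle male 3, WT lithium females 1 or 4, WT lithium males 1 or 5, WT vehicle female 2 or WT vehicle male 1 (adjusted p = 0.0292 to 0.0463). With the replicate number as a block, although same-numbered libraries were not alike on average, lithium against vehicle kept 3 calls. Female against male had 0, with Mog at 0.47 (adjusted p = 0.0527, limma).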

Other observations

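Without subtracting group means, the genes most like the mean of the 9 over 59 libraries included Fa2h, Plekhh1 and Gpr37 at r = 0.98, then Mal, Tmem88b, Gjb1, Plekhb1, Lpar1 and Sec14l5 at 0.96. Gjb1 encodes a connexin of oligodendrocytes and Lpar1 a receptor for lysophosphatidic acid. The points share their libraries, so these values are descriptions. Myelin lipid synthesis genes correlated with the 9 at 0.86 with group means subtracted, olfactory bulb markers at 0.38, choroid plexus markers at 0.05 and endothelial markers at -0.13. Within the 25 libraries that stood apart and within the 34 others, deep-layer markers correlated at 0.77 and 0.83, and meningeal markers at -0.48 and -0.73.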
